A study of Homo sapiens with 16 samples.

Results

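Acetylation of histone H3 at lysine 27 (H3K27ac) was described at the genes of 6 myeloid transcription factors in THP-1 cells, a human monocytic leukemia line. These were the C/EBP factors CEBPA, CEBPB, CEBPD, CEBPE and CEBPG, and SPI1, which encodes PU.1. A member was any window of the deposited table assigned to 1 of these genes with its centre no more than 50000 bp from the transcription start site (TSS), and 42 of 151654 windows met that rule. CEBPA had 12 of them, CEBPG 10, CEBPD 8, CEBPE 5, SPI1 4 and CEBPB 3. The genes were chosen by an earlier look at the knockout against WT values of these same libraries, since matches to C/EBP motifs were frequent in the windows with less H3K27ac in knockout cells. Knockout against WT values are therefore given here as a description with no test, and the tests concern the response to IFN. The difference of the IFN effects between genotypes equals the knockout against WT value with IFN minus that in untreated cells. Its adjusted p are therefore not independent of how the genes were chosen.

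C/EBP proteins are basic leucine zipper factors that bind DNA as pairs, either with themselves or with each other. C/EBPα and PU.1 act together to set up the monocyte and granulocyte lineages, C/EBPε completes granulocyte maturation, and C/EBPβ and C/EBPδ are induced in inflammation. C/EBPγ has no activation domain of its own and works as a partner of other zipper proteins, and H3K27ac marks the promoters and enhancers that are in use.

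WT cells were THP-1 cells that the labels describe in one field as Cas9 only and in another as given a lentivirus with a control sgRNA, and which of these holds is not resolved here. USP18−/− cells were given a lentivirus with sgRNAs against USP18, which encodes a negative regulator of type I IFN signaling. Both lines shared growth in RPMI medium with FBS and were either left untreated (0 h) or given IFNα at 1000 U/ml for 6 h. By the methods, CRISPR knockout cells were grown from sorted single cells, so the genotype cannot be told apart from properties of a clone. Each of the 4 groups had 2 libraries, described as independent samples, and 8 further input libraries were not analysed here.

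Rounded counts summed over the windows from 9082433 to 12971831 per library. Values are CPM, counts divided by the library total after its adjustment with edgeR's TMM factors and scaled to a common total, over windows of equal width (1000 bp), so levels can be compared between genes. A window near the TSS was present for 8 of 8 monocyte and myeloid marker genes. Their means over the 8 libraries ran from 2.22 to 26.9 CPM with a median of 10.3 CPM, beside 7.62 CPM for all genes with such a window. Their summed level was 90.5 to 94.0 CPM in untreated WT cells and 99.7 to 101.1 CPM in knockout cells with IFN. The sum hides opposite changes with IFN in knockout cells. LYZ went from 14.1 and 12.7 CPM to 5.60 and 4.53 CPM, and CD68 from 19.4 and 20.9 CPM to 33.5 and 39.5 CPM. Of 9 markers of other cell types, 7 had no window near the TSS and KRT8 had a mean of 0.916 CPM. NKG7 had a mean of 12.4 CPM, above the median of the monocyte and myeloid markers. The window at the USP18 TSS held 7.52 to 8.35 CPM in the 4 untreated libraries, 14.8 to 17.8 CPM in WT cells with IFN and 41.1 to 48.5 CPM in knockout cells with IFN. This promoter signal does not show whether the coding sequence was edited. In these bulk samples, fewer cells that carry the mark and less mark per cell cannot be told apart.

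IFN in knockout cells lowered H3K27ac at 2 overlapping windows near the CEBPE TSS and at a stretch downstream of CEBPG. The 3 CEBPE windows farther downstream did not pass. In the same cells, IFN lowered H3K27ac moderately along CEBPA and raised it moderately at the 4 SPI1 members. In WT cells, none of the 42 windows passed the test. At none of the 4 SPI1 members did the difference between the knockout and WT effects pass (smallest adjusted p = 0.088, edgeR). A window was called when it differed by more than 2-fold with an adjusted p under 0.05 in the quasi-likelihood test of edgeR, adjusted after Benjamini and Hochberg over the 123276 windows tested, and all 42 members passed the count filter. In WT cells, edgeR called 0 members in either direction, beside 0.342% of all windows tested called higher and 0.0389% called lower. With no limit on the fold the count was also 0, beside 0.652% of all windows tested higher and 0.155% lower at an adjusted p under 0.05. The smallest adjusted p from edgeR was 0.32, and DESeq2 also called 0. At an unadjusted p under 0.05 in edgeR, 3 members were higher and 1 lower. For all windows the share at that cut was not counted, so these counts are no result about the members.

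In knockout cells, 1 member was called higher with IFN and 4 were called lower, which is 2.38% and 9.52% of the members. Over all windows tested, 7.12% were called higher and 4.3% lower. With no limit on the fold, 9 members were higher and 13 lower at an adjusted p under 0.05 from edgeR, beside 13% and 11.2% of all windows tested. The median log2 fold change of the members was -0.09, beside -0.01 for all windows tested. The scaling matters for small changes. Dividing by the sum of counts in place of TMM moved the median of all windows from -0.01 to -0.14 and turned 8783 higher and 5303 lower calls into 7461 and 7882, and at that scaling 0 members were called higher and 6 lower, or 5 higher and 17 lower at an adjusted p under 0.05 alone. At the adjusted p alone, the share of all windows at that scaling was not counted. The 4 windows lower at that scaling and not with TMM were CEBPA at 22209 and 28290 bp, CEBPD at 3167 bp and CEBPG at 16009 bp.

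The difference between the IFN effects, knockout minus WT, was called lower at 3 members and higher at 0. Of all windows tested, 2.51% were called lower and 4.66% higher. With no limit on the fold, 8 members were lower and 0 higher at an adjusted p under 0.05 from edgeR, beside 5.22% and 6.84% of all windows tested, and DESeq2 gave 7 lower and 0 higher. Scaling by the sum of counts gave 13 lower in place of 8, adding CEBPA at -64, 28290 and 34626 bp, CEBPD at 3167 bp and CEBPE at -1370 bp. The share of all windows at that scaling and adjusted p was not counted. At an unadjusted p under 0.05 in edgeR, 14 members were lower and 6 higher. The share of all windows at that cut was not counted, and 27 members overlap another window, so these counts are no result about the members.

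**Figure D1:**
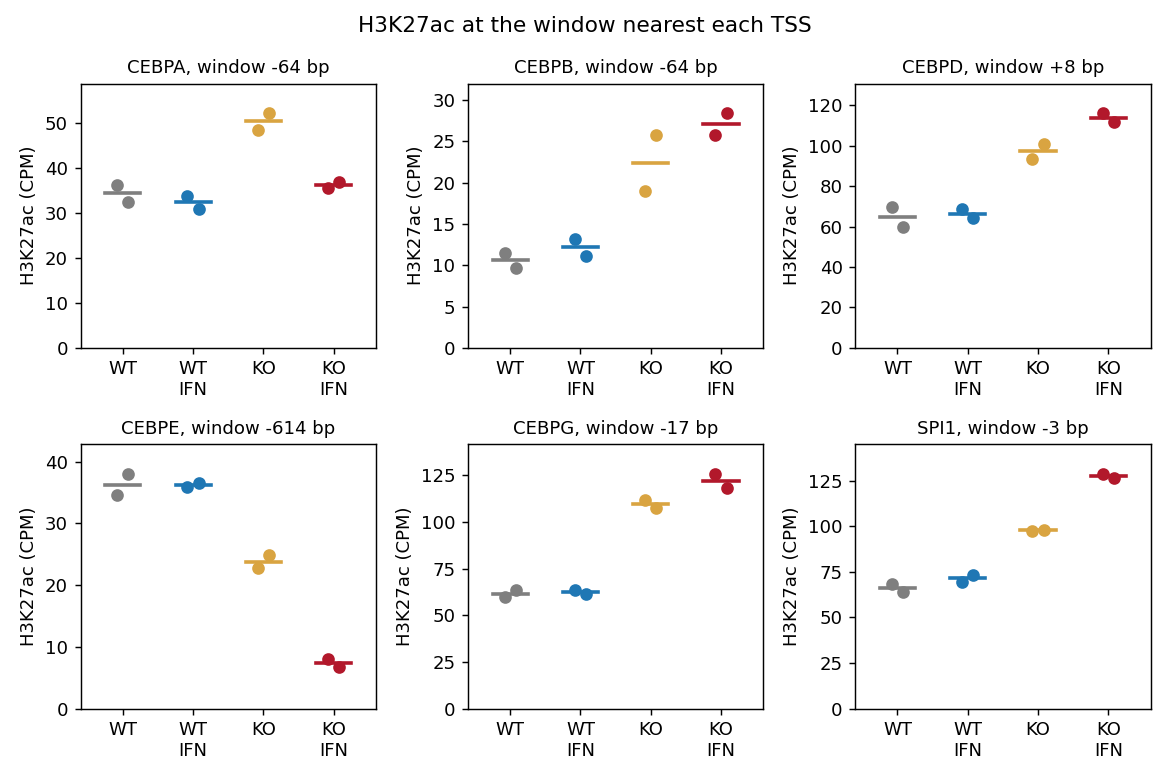
H3K27ac in CPM on a linear axis from 0 at the window nearest the TSS of each gene, with 1 point per library and a bar at the mean of the 2 libraries. In knockout cells with IFN, CEBPE lay at 8.05 and 6.75 CPM, below all other libraries, while SPI1 lay at 129 and 127 CPM, above all other libraries.

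At the windows nearest the TSS in untreated WT cells, SPI1 held 68.2 and 63.7 CPM in replicates 1 and 2, CEBPD 69.6 and 59.9 CPM and CEBPG 59.5 and 63.6 CPM. These ranges overlapped, so their order is not resolved. CEBPE held 34.5 and 38.0 CPM and CEBPA 36.4 and 32.5 CPM, which overlapped as well, and CEBPB was lowest with 11.5 and 9.67 CPM. The rank of CEBPB holds for that window only. Over the gene at 782 bp downstream, a window assigned to CEBPB-AS1 held 37.2 and 41.5 CPM in untreated WT cells. By the mean over the 8 libraries, SPI1, CEBPG and CEBPD stood at the 98.9, 98.8 and 98.5 percentiles of all genes with such a window, CEBPA at the 85.7, CEBPE at the 73.3 and CEBPB at the 60.4 percentile. CEBPE was the lowest of the 6 genes in knockout cells with IFN, where CEBPB held 25.7 and 28.4 CPM.

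CEBPE, the C/EBP factor of late granulocyte maturation, carried the largest change with IFN among the 42 windows. Its window nearest the TSS, centred 614 bp upstream at chr14:23119725-23120725 of hg38, overlaps the first exon of a CEBPE transcript in GENCODE. It held 34.5 and 38.0 CPM in untreated WT cells, 35.8 and 36.6 CPM in WT cells with IFN, 22.7 and 24.9 CPM in untreated knockout cells and 8.05 and 6.75 CPM in knockout cells with IFN. The WT groups overlapped, and both libraries of knockout cells with IFN lay below both untreated knockout libraries. With IFN, the log2 fold change at this window was -0.00 (SE 0.11) in WT cells and -1.68 (SE 0.15) in knockout cells, a 3.20-fold lower level (adjusted p = 4.5e-17, edgeR). The difference of these effects was -1.68 (SE 0.19) with an adjusted p of 2.0e-11 from edgeR.

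The adjoining window, centred 1370 bp upstream of the CEBPE TSS and sharing bases with the first, was also lower with IFN in knockout cells. It held 4.48 and 4.46 CPM untreated and 2.54 and 2.13 CPM with IFN, with no overlap, a log2 fold change of -0.93 (SE 0.27) (adjusted p = 0.0061, edgeR). Without replicate 2 of knockout cells with IFN, its adjusted p was 0.0625. In WT cells the same window held 6.83 and 6.27 CPM untreated and 5.08 and 7.38 CPM with IFN, which overlapped. The difference of the IFN effects there was -0.86 (SE 0.35) and did not pass (adjusted p = 0.11, edgeR).

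The window 614 bp upstream of CEBPE holds a match to a PU.1 motif, the letters GAGGAAGT, which 6.41% of all windows have in their central 200 bp. It is shown because PU.1 is among the 6 factors and this window changed most, with the match on the minus strand in capitals and 30 bases at chr14:23120261-23120290, plus strand of hg38, upstream of the annotated exon.
CEBPE -614 site: ctcttgggtctACTTCCTCttgtgaggttt

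The 3 remaining CEBPE windows lie between genes, 4436, 5818 and 6726 bp downstream of the TSS, in a direction where an enhancer of the mouse gene has been described. None of the 3 passed for IFN in either genotype. Knockout libraries held only 5 to 23 counts at these windows, so a moderate change there could be missed. The window at 4436 bp held 5.30 and 5.28 CPM in untreated WT cells, 5.08 and 6.88 CPM in WT cells with IFN, 1.46 and 0.475 CPM in untreated knockout cells and 0.962 and 1.11 CPM in knockout cells with IFN. All 4 WT libraries lay above all 4 knockout libraries.
The window at 5818 bp held 5.30 and 6.89 CPM, 4.20 and 6.07 CPM, 1.98 and 1.52 CPM and 1.14 and 1.57 CPM in the same order of groups. The window at 6726 bp held 3.16 and 3.58 CPM, 3.71 and 4.25 CPM, 0.947 and 0.664 CPM and 0.962 and 1.02 CPM. Both showed the same separation of WT from knockout libraries. The log2 fold changes of the 3 windows with IFN in knockout cells were 0.06 (SE 0.46), -0.38 (SE 0.38) and 0.28 (SE 0.47), with adjusted p from 0.55 to 0.95 in edgeR.

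The central 200 bp of the window at 6726 bp, chr14:23112786-23112985 of hg38, plus strand, is shown because it holds a C/EBP match (TTGCNNAA, N any base), on the minus strand and in capitals. Such a match lies in 16.4% of all windows.
CEBPE +6726: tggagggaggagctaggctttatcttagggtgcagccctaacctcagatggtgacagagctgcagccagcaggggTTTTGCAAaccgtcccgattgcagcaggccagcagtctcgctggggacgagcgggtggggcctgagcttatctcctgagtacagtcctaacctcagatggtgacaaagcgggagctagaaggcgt

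**Figure D2:**
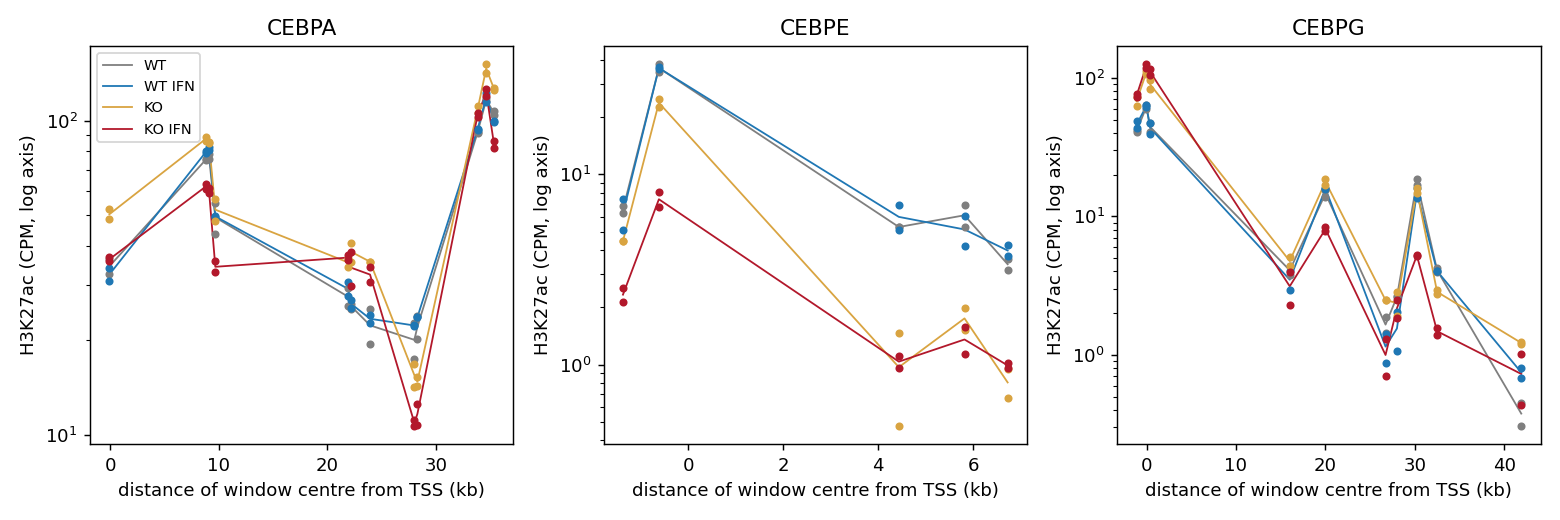
H3K27ac in CPM on a log axis against the distance of the window's centre from the TSS, for CEBPA, CEBPE and CEBPG, with 1 point per library and lines through the mean of each group, drawn only to guide the eye. For CEBPE, knockout cells with IFN lie below the other groups near the TSS, and both knockout groups lie below both WT groups at the 3 windows downstream. For CEBPG, knockout cells with IFN are lowest at 20003 and 30219 bp and highest at the TSS.

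CEBPG, the partner protein of other zipper factors, had opposite signs at its TSS and downstream. The 7 windows beyond 3000 bp lie within PEPD, the neighbouring gene for the enzyme prolidase, 6 of them with their centre in an intron, and the table assigned them to CEBPG as the nearest TSS. With IFN in knockout cells all 7 had a negative log2 fold change, with a median of -0.93, and 3 of them were called. In WT cells, 5 of the 7 were negative, none was called and the median was -0.23.

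The CEBPG window 20003 bp downstream, chr19:33394027-33395027, was the strongest of these. It held 15.5 and 13.7 CPM in untreated WT cells, 15.6 and 16.1 CPM in WT cells with IFN, 17.0 and 18.6 CPM in untreated knockout cells and 8.40 and 7.77 CPM in knockout cells with IFN. The last group lay below the other 6 libraries. As log2 fold changes, the IFN effects were 0.12 (SE 0.15) in WT cells and -1.13 (SE 0.16) in knockout cells (adjusted p = 7.5e-09, edgeR), and the difference was -1.26 (SE 0.22) with an adjusted p of 7.5e-06 from edgeR.

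The CEBPG window 30219 bp downstream, chr19:33404243-33405243, showed the same pattern. It held 16.7 and 18.7 CPM and 13.5 and 16.1 CPM in WT cells without and with IFN. Knockout cells held 16.0 and 14.8 CPM untreated and 5.25 and 5.18 CPM with IFN, below all other libraries. IFN effects on the log2 scale were -0.26 (SE 0.15) in WT cells and -1.56 (SE 0.18) in knockout cells (adjusted p = 4.7e-12, edgeR), with a difference of -1.30 (SE 0.24) (adjusted p = 1.4e-05, edgeR).

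The central 200 bp of these windows are shown because they carried the called differences outside CEBPE. In the first, at chr19:33394428-33394627, capitals mark an AP-1 match (TGANTCA), which reads the same on both strands and occurs in 12.9% of all windows. The second, at chr19:33404644-33404843, has no match to any of the 5 motifs searched. Both are the plus strand of hg38 within introns of PEPD.
CEBPG +20003: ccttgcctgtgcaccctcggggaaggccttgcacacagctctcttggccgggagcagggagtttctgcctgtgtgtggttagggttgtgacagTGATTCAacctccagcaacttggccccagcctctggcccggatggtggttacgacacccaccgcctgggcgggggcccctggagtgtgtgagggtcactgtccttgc
CEBPG +30219: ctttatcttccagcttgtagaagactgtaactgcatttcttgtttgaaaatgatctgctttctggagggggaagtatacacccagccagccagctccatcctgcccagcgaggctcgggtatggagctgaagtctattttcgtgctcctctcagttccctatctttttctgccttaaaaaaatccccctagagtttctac

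At 32478 bp downstream of CEBPG, knockout cells held 2.75 and 2.94 CPM untreated and 1.57 and 1.39 CPM with IFN, which did not overlap. This was a log2 fold change of -0.93 (SE 0.33) with an adjusted p of 0.026 from edgeR, but the adjusted p was 0.0621 to 0.127 when any 1 of the 4 knockout libraries was left out and 0.102 with DESeq2. The window at 26717 bp, whose centre lies in an exon of PEPD, was called lower from low counts. It held 2.50 and 2.47 CPM in untreated knockout cells and 0.700 and 1.30 CPM with IFN, a log2 fold change of -1.32 (SE 0.39) (adjusted p = 0.0074, edgeR). Without replicate 1 of knockout cells with IFN, its adjusted p was 0.147, and with DESeq2 it was 0.0796.

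Near its TSS, CEBPG was higher with IFN in knockout cells at 1 of 3 windows. The window centred 414 bp downstream, chr19:33373583-33374583, held 40.9 and 47.4 CPM in untreated WT cells and 47.4 and 39.2 CPM in WT cells with IFN. Knockout cells held 82.7 and 96.2 CPM untreated and 105 and 115 CPM with IFN, without overlap. The log2 fold change in knockout cells was 0.30 (SE 0.09) (adjusted p = 0.0078, edgeR), and with scaling by the sum of counts the adjusted p was 0.157. It was 0.330 without replicate 1 of untreated knockout cells, 0.159 without replicate 2 of knockout cells with IFN and 0.0641 with DESeq2. The windows centred 17 and 1110 bp upstream of CEBPG had log2 fold changes of 0.15 (SE 0.08) and 0.13 (SE 0.09), which did not pass.

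CEBPA, the gene for the factor that commits progenitors to the granulocyte and monocyte lineages, lost H3K27ac moderately with IFN in knockout cells. Of its 12 windows, 7 were lower at an adjusted p under 0.05 in edgeR, 0 were higher, and none was called at 2-fold. Their median log2 fold change was -0.41 in the knockout and 0.06 in WT cells, where none of the 12 passed. At the TSS, the window at chr19:33302128-33303128 held 36.4 and 32.5 CPM in untreated WT cells, 33.9 and 31.0 CPM in WT cells with IFN, 48.5 and 52.3 CPM in untreated knockout cells and 35.7 and 36.8 CPM in knockout cells with IFN. The untreated knockout libraries were the highest, and knockout libraries with IFN overlapped the untreated WT libraries. This loss in knockout cells was -0.48 (SE 0.11) on the log2 scale (adjusted p = 1.8e-04, edgeR). The difference from the effect in WT cells did not pass at -0.39 (SE 0.15) with an adjusted p of 0.087 from edgeR.

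A group of overlapping windows 8840, 9107 and 9690 bp downstream of the CEBPA TSS differed in the IFN effect between knockout and WT cells. The window at 8840 bp held 75.1 and 75.7 CPM in untreated WT cells, 79.2 and 80.3 CPM in WT cells with IFN, 86.5 and 89.0 CPM in untreated knockout cells and 60.9 and 62.9 CPM in knockout cells with IFN. Knockout libraries with IFN were lower than all others, and untreated knockout libraries were higher than all others. Its log2 fold change with IFN was 0.08 (SE 0.09) in WT cells and -0.50 (SE 0.09) in knockout cells (adjusted p = 2.0e-06, edgeR), and the difference was -0.58 (SE 0.12) with an adjusted p of 2.4e-04 from edgeR.
The windows at 9107 and 9690 bp, which share tags with it, had differences of -0.59 (SE 0.12) and -0.61 (SE 0.15), with adjusted p of 2.3e-04 and 0.0019 from edgeR. At 9690 bp the adjusted p was 0.0827 without replicate 1 of untreated WT cells.

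The strongest stretch assigned to CEBPA lay 33829 to 35347 bp downstream. Windows 40871 to 42839 bp downstream, assigned to SLC7A10, fell more with IFN in knockout cells and are given below. The window at 34626 bp, chr19:33267438-33268438, had the highest mean of all 42. It held 116 and 118 CPM in untreated WT cells, 122 and 115 CPM in WT cells with IFN, 142 and 152 CPM in untreated knockout cells and 120.4 and 126 CPM in knockout cells with IFN. Untreated knockout libraries lay above the rest. IFN in knockout cells gave a log2 fold change of -0.25 (SE 0.08) (adjusted p = 0.01, edgeR), and the adjusted p was 0.140 without replicate 2 of untreated knockout cells.

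Next to it, the window at 35347 bp, chr19:33266717-33267717, differed more. It held 104 and 107 CPM in untreated WT cells and 100.2 and 99.0 CPM in WT cells with IFN. Knockout cells held 125 and 128 CPM untreated, above all WT libraries, and 82.2 and 86.2 CPM with IFN, below them. The log2 fold change in knockout cells was -0.59 (SE 0.08) (adjusted p = 5.1e-09, edgeR), and the difference from WT cells was -0.50 (SE 0.12) (adjusted p = 8.6e-04, edgeR). By contrast, the window at 33829 bp held 106 and 111 CPM in untreated knockout cells and 106 and 103 CPM with IFN, a log2 fold change of -0.06 (SE 0.08) that did not pass (adjusted p = 0.68, edgeR).

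The sequences of 3 CEBPA windows are shown because they differed in their IFN effect and hold a match to a C/EBP motif. In capitals are TTGCNNAA matches in the first and second and a C/EBP-ATF match (TGATGCAA), found in 1.88% of all windows, in the third. They are the central 200 bp on the plus strand of hg38, at chr19:33293625-33293824, chr19:33292775-33292974 and chr19:33267118-33267317, and no gene is annotated there.
CEBPA +8840: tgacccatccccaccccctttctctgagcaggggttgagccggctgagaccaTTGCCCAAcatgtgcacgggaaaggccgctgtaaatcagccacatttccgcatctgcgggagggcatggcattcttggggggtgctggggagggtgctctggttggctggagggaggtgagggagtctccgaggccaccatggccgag
CEBPA +9690: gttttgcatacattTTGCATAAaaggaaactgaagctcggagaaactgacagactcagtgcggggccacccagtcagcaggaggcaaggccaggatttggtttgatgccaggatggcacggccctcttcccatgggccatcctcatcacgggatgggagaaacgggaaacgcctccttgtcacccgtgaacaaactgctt
CEBPA +35347: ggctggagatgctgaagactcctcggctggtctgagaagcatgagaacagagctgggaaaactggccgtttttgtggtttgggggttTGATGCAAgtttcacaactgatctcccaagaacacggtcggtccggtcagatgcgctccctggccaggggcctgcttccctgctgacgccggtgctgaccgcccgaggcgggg

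Between these stretches, the overlapping CEBPA windows at 28014 and 28290 bp were the only CEBPA windows with less H3K27ac in untreated knockout than in untreated WT cells. At 28014 bp, WT cells held 17.4 and 22.7 CPM untreated and 22.3 and 22.4 CPM with IFN, and knockout cells held 14.2 and 16.8 CPM untreated and 10.7 and 11.2 CPM with IFN. The 4 WT libraries lay above the 4 knockout libraries. The IFN effect in knockout cells was -0.50 (SE 0.16) (adjusted p = 0.01, edgeR), or an adjusted p of 0.162 without replicate 2 of untreated knockout cells. The difference from WT cells, -0.65 (SE 0.21), had an adjusted p of 0.026 from edgeR, of 0.0917 with DESeq2, and of 0.0505 to 0.239 when any of 5 libraries was left out (both WT libraries with IFN, replicate 1 of untreated WT cells and of knockout cells with IFN, and replicate 2 of untreated knockout cells). The windows at 21904, 22209 and 23931 bp held 19.5 to 40.9 CPM over all libraries and did not pass for IFN in either genotype, except that the one at 22209 bp had a log2 fold change of -0.30 in knockout cells with scaling by the sum of counts (adjusted p = 0.038, edgeR) and an adjusted p of 0.031 without replicate 2 of knockout cells with IFN.

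**Figure D3:**
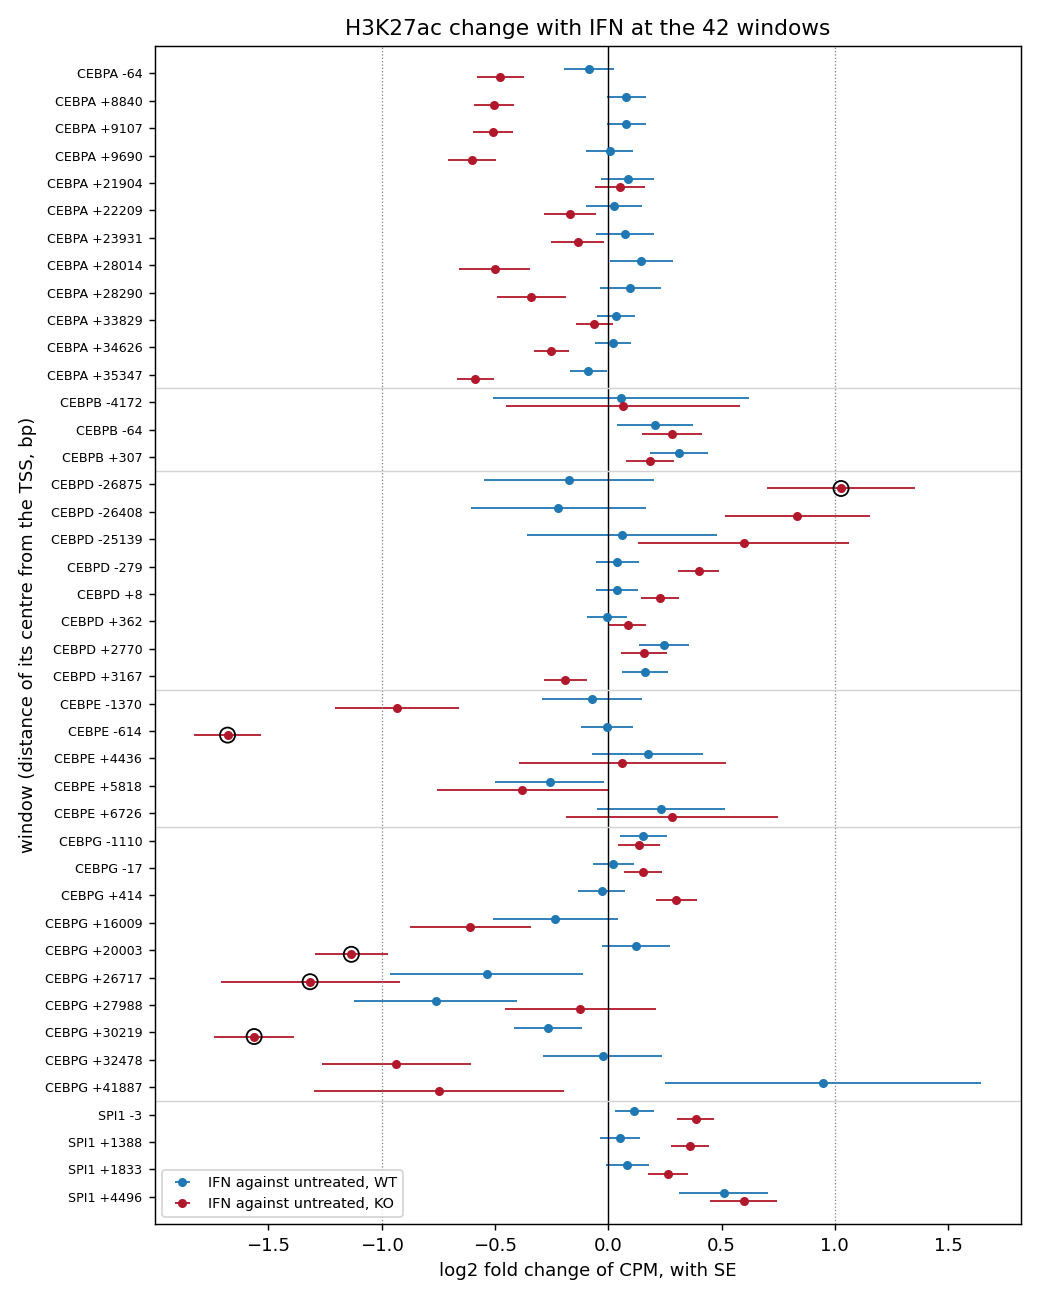
Log2 fold change of H3K27ac with IFN against untreated cells at each of the 42 windows, in WT cells (blue) and knockout cells (red), with bars of 1 SE from edgeR and dotted lines at a 2-fold change. Black circles mark the 5 windows called in knockout cells. WT points have none, the CEBPE window at -614 bp is the lowest knockout point at -1.68, and all 4 SPI1 windows lie above 0.

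SPI1 encodes PU.1, an ETS factor required for monocyte identity, and all 4 windows assigned to it rose with IFN in knockout cells at an adjusted p under 0.05 from edgeR, none by 2-fold. A further window in an SPI1 intron, 18784 bp downstream and assigned by the table to MYBPC3, fell in the same comparison by a log2 fold change of -0.60 (SE 0.11) (adjusted p = 1.0e-05, edgeR). The window at the TSS, chr11:47378079-47379079, held 68.2 and 63.7 CPM in untreated WT cells, 69.4 and 73.4 CPM in WT cells with IFN, 97.3 and 98.0 CPM in untreated knockout cells and 129 and 127 CPM in knockout cells with IFN. No group overlapped another, and the levels stood in that order from lowest to highest. The log2 fold change with IFN was 0.12 (SE 0.09) in WT cells, which did not pass, and 0.39 (SE 0.08) in knockout cells (adjusted p = 1.1e-04, edgeR). The difference did not pass either, at 0.27 (SE 0.12) with an adjusted p of 0.15 from edgeR. With scaling by the sum of counts, the effect in knockout cells was 0.26 with an adjusted p of 0.0099 from edgeR.

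Within the SPI1 gene, the window 4496 bp downstream of the TSS, chr11:47373580-47374580, lies in the second intron. It held 5.91 and 6.09 CPM in untreated WT cells, 8.01 and 9.10 CPM in WT cells with IFN, 13.0 and 15.0 CPM in untreated knockout cells and 19.9 and 22.4 CPM in knockout cells with IFN. Here too the groups lay in that order without overlap. The log2 fold change was 0.51 (SE 0.20) in WT cells (adjusted p = 0.32, edgeR) and 0.60 (SE 0.15) in knockout cells (adjusted p = 8.2e-04, edgeR), with a difference of 0.09 (SE 0.25). In knockout cells the adjusted p was 0.0563 without replicate 1 of the untreated group. The overlapping windows at 1388 and 1833 bp, in the first intron, had log2 fold changes of 0.36 (SE 0.08) and 0.26 (SE 0.09) in knockout cells. The second of them did not pass with scaling by the sum of counts (adjusted p = 0.285, edgeR), with DESeq2 (0.0556), or without replicate 1 of untreated knockout cells or either knockout library with IFN (0.0831 to 0.211), and the first had 0.0561 without replicate 1 of untreated knockout cells.

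CEBPB, a factor of macrophage activation and emergency granulopoiesis, had 3 members, and none passed for IFN in either genotype. Of 3 further windows over the gene that the table assigned to CEBPB-AS1, 2 rose with IFN in knockout cells, at 1485 bp by a log2 fold change of 0.24 (SE 0.09) (adjusted p = 0.039, edgeR) and at 1839 bp by 0.32 (SE 0.09) (adjusted p = 0.0063, edgeR). The member centred 307 bp downstream of the TSS, chr20:50190390-50191390, in its only exon upstream of the coding sequence, held 19.3 and 20.1 CPM in untreated WT cells, 26.6 and 22.3 CPM in WT cells with IFN, 42.8 and 50.9 CPM in untreated knockout cells and 51.5 and 54.8 CPM in knockout cells with IFN. All 4 knockout libraries lay above all 4 WT libraries. With IFN, the log2 fold change was 0.31 (SE 0.13) in WT cells (adjusted p = 0.37, edgeR) and 0.18 (SE 0.11) in knockout cells (adjusted p = 0.23, edgeR). The overlapping window 64 bp upstream of the TSS held 11.5 and 9.67 CPM in untreated WT cells, 13.2 and 11.1 CPM in WT cells with IFN, 18.9 and 25.7 CPM in untreated knockout cells and 25.7 and 28.4 CPM in knockout cells with IFN. Its untreated and IFN treated libraries overlapped within both genotypes, and the IFN effect in knockout cells was 0.28 (SE 0.13) (adjusted p = 0.13, edgeR), or 0.51 with an adjusted p of 0.014 without replicate 2 of untreated knockout cells. The third window, 4172 bp upstream in an exon of CEBPB-AS1, held 0.684 to 1.20 CPM over all libraries, too few counts to show a change.

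CEBPD, an inflammation-induced C/EBP gene on chromosome 8, rose at its TSS with IFN in knockout cells by less than 2-fold. The window 279 bp upstream of the TSS held 62.8 and 55.7 CPM in untreated WT cells, 63.3 and 58.4 CPM in WT cells with IFN, 81.7 and 79.7 CPM in untreated knockout cells and 115 and 97.4 CPM in knockout cells with IFN. Knockout libraries lay above WT libraries, and those with IFN were highest. IFN effects there were 0.04 (SE 0.09) on the log2 scale in WT cells and 0.40 (SE 0.09) in knockout cells (adjusted p = 2.0e-04, edgeR). The adjusted p was 0.0986 without replicate 1 of knockout cells with IFN, and the difference of 0.36 (SE 0.13) from WT cells did not pass (adjusted p = 0.056, edgeR).

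The window nearest the CEBPD TSS, 8 bp downstream, held 69.6 and 59.9 CPM in untreated WT cells, 68.7 and 64.0 CPM in WT cells with IFN, 93.5 and 101 CPM in untreated knockout cells and 116 and 112 CPM in knockout cells with IFN. Both knockout groups lay above WT cells, and the one with IFN lay above the untreated one. Its log2 fold change in knockout cells, 0.23 (SE 0.09), had an adjusted p of 0.039 from edgeR and of 0.444 with scaling by the sum of counts. Leaving out replicate 1 of untreated knockout cells or either knockout library with IFN gave 0.0775 to 0.395, and DESeq2 gave 0.126. The window 3167 bp downstream, within the neighbouring gene SPIDR, was the strongest CEBPD window beyond 3000 bp. It held 62.1 and 66.0 CPM in untreated knockout cells and 55.1 and 57.2 CPM with IFN, a log2 fold change of -0.19 (SE 0.09) that did not pass (adjusted p = 0.15, edgeR) but reached -0.32 with an adjusted p of 0.0047 from edgeR with scaling by the sum of counts.

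The only member called higher with IFN in knockout cells was the CEBPD window 26875 bp upstream. It held 1.94 and 1.88 CPM in untreated WT cells, 1.07 and 2.33 CPM in WT cells with IFN, 1.98 and 1.42 CPM in untreated knockout cells and 3.94 and 3.05 CPM in knockout cells with IFN. The last group was highest, from few counts. IFN raised it by a log2 fold change of 1.03 (SE 0.33) (adjusted p = 0.012, edgeR), and the call was lost with scaling by the sum of counts, with DESeq2 (adjusted p = 0.122) and without replicate 2 of untreated knockout cells (0.137) or replicate 1 of knockout cells with IFN (0.184). This window was the only member with matches to the ISRE motif, GAAA and GAAA with 2 bases between them, of which it held 2, beside 5.43% of all windows with at least 1.

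**Figure D4:**
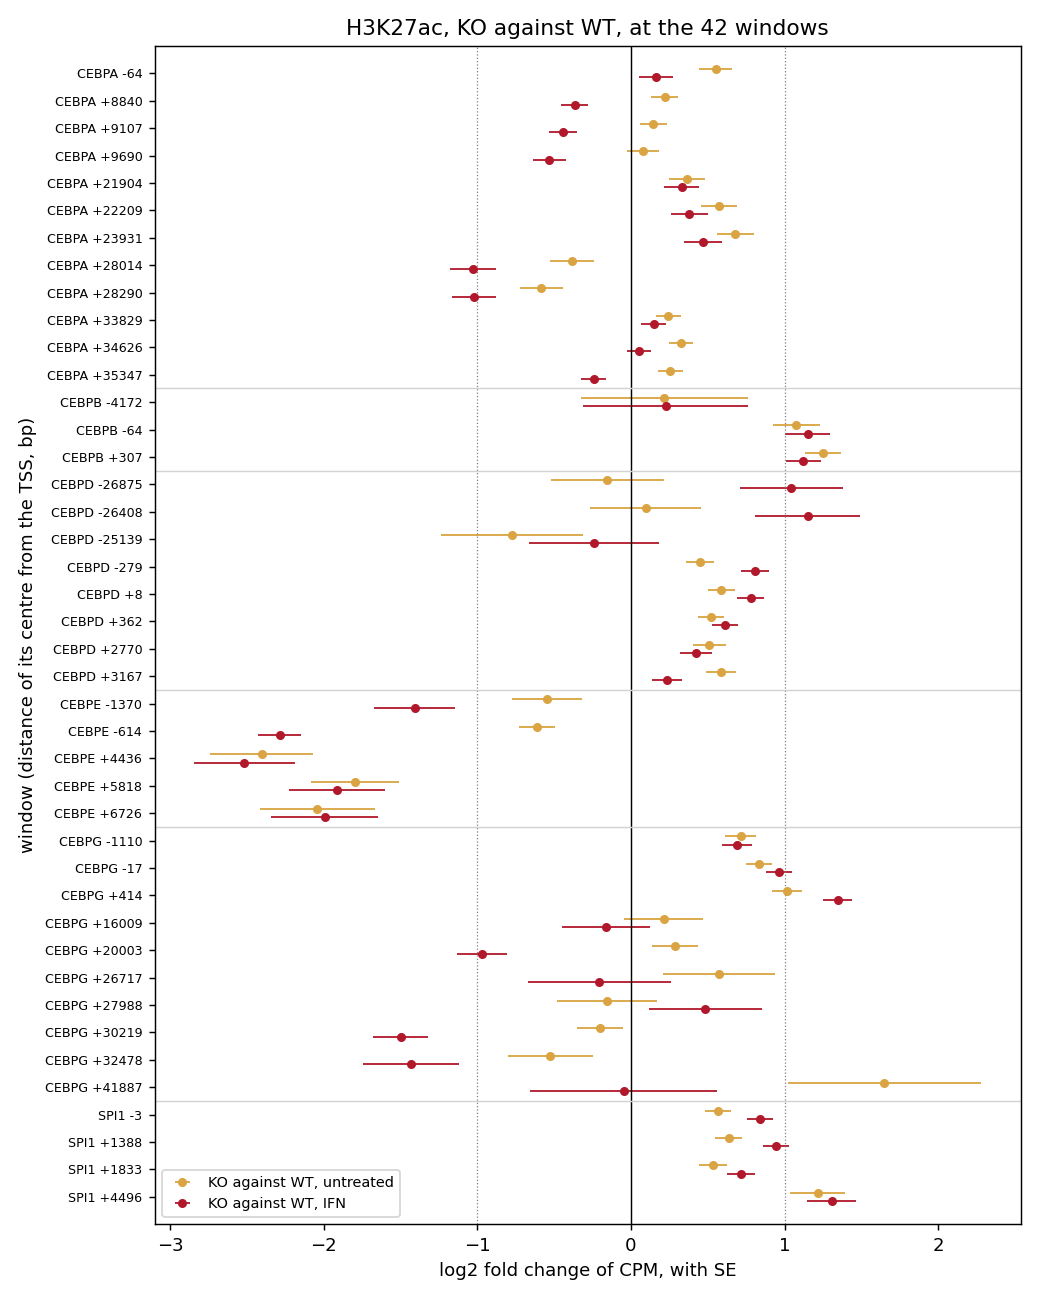
Log2 fold change of H3K27ac in knockout against WT cells at each of the 42 windows, untreated (yellow) and with IFN (red), with bars of 1 SE from edgeR and dotted lines at a 2-fold change. The plot is a description, since the genes were chosen on this comparison. All 5 CEBPE windows lie below 0 in both comparisons, down to -2.52, and all 4 SPI1 and 3 CEBPB windows lie above 0.

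The knockout against WT values follow as a description, and the counts are given only to show which windows lay past the same thresholds. Untreated, 5 members lay past them as higher in knockout cells and 3 as lower, beside 5.67% and 10.8% of all windows tested. With IFN in both groups, 6 were higher and 9 lower, beside 11.3% and 13.4% of all windows tested. With scaling by the sum of counts, 2 members were higher and 3 lower untreated, beside 4974 and 16879 of all 123276 windows tested. With IFN at that scaling, 2 members were higher and 10 lower, beside 8789 and 24065 of all windows tested. There the median log2 fold change of all windows was -0.27.

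CEBPE supplied all 3 lower windows in untreated cells, at 4436, 5818 and 6726 bp downstream, with log2 fold changes of -2.40 (SE 0.33), -1.79 (SE 0.29) and -2.04 (SE 0.37). With IFN, all 5 CEBPE windows were lower, and the one at 614 bp upstream reached -2.29 (SE 0.14). The other lower windows with IFN were CEBPA at 28014 bp with -1.03 (SE 0.15), CEBPA at 28290 bp with -1.02 (SE 0.14), CEBPG at 30219 bp with -1.50 (SE 0.18) and CEBPG at 32478 bp with -1.43 (SE 0.31).

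Higher in untreated knockout cells were CEBPB at 307 bp with 1.25 (SE 0.12), CEBPB at -64 bp with 1.08 (SE 0.15), SPI1 at 4496 bp with 1.22 (SE 0.18) and CEBPG at 414 bp with 1.01 (SE 0.10). The fifth was CEBPG at 41887 bp, which held 0.306 and 0.448 CPM in WT and 1.20 and 1.23 CPM in knockout cells and is the member farthest from a TSS. The nearest window outside the limit, CEBPG at 56323 bp, held 0.293 to 0.815 CPM over all libraries. With IFN, CEBPG at 414 bp reached 1.35 (SE 0.10), SPI1 at 4496 bp 1.31 (SE 0.16), CEBPB at -64 bp 1.15 (SE 0.15) and CEBPB at 307 bp 1.12 (SE 0.11), and the other higher windows were the CEBPD windows at -26875 and -26408 bp.

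Among partners and antagonists of these factors (12 genes, among them DDIT3, TRIB1, GFI1, RUNX1 and IRF8), 11 had a TSS window. None of these 11 windows was called for IFN in WT cells, for IFN in knockout cells or for the difference. Over all 124 tested windows of these genes, 1 (0.806%) was called higher and 0 lower with IFN in WT cells, beside 0.342% and 0.0389% of all windows tested. In knockout cells, 8 of the 124 (6.45%) were called higher and 5 (4.03%) lower with IFN, beside 7.12% and 4.3% of all windows tested. For the difference, 4 (3.23%) were called higher and 2 (1.61%) lower, beside 4.66% and 2.51% of all windows tested. Between genotypes with IFN, as a description, the TSS window of JUN, a subunit of AP-1, had a log2 fold change of 1.15 (SE 0.24). Of 20 target genes of C/EBP factors and PU.1 in monocytes and granulocytes, 18 had a TSS window. With IFN, none of the 18 was called in WT cells. In knockout cells, 6 of the 18 were called lower and 0 higher, and 4 were called lower for the difference. Over all 129 tested windows of the target genes, 0 were called with IFN in WT cells. In knockout cells, 6 of the 129 (4.65%) were called higher and 19 (14.7%) lower with IFN, beside 7.12% and 4.3% of all windows tested. For the difference, 3 of the 129 (2.33%) were called higher and 9 (6.98%) lower, beside 4.66% and 2.51% of all windows tested. Over the windows nearest the TSS of 15838 genes, 0.366% were called higher and 0.0253% lower in WT cells, 3.75% higher and 1.78% lower in knockout cells, and 2.51% higher and 1.14% lower for the difference. The list was chosen with earlier results of these data known, so these shares are a description. The median log2 fold change of the 18 with IFN in knockout cells was -0.22.

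The 6 targets called lower at the TSS window with IFN in knockout cells were MPO, PRTN3, AZU1, ELANE, CTSG and LYZ. All are from the list of 20. CTSG and LYZ lay past the limit of 4 named genes for this contrast and were named here after their values were seen. LYZ lay within that limit for the difference. MPO, myeloperoxidase, held 48.2 and 55.9 CPM in untreated WT cells, 50.7 and 54.4 CPM in WT cells with IFN, 16.2 and 18.1 CPM in untreated knockout cells and 4.72 and 3.79 CPM in knockout cells with IFN, 1012 bp upstream of its TSS. Knockout cells lay below WT cells, and IFN lowered them further by a log2 fold change of -2.00 (SE 0.17, adjusted p = 7.2e-18, edgeR). PRTN3, proteinase 3, held 59.5 and 58.9 CPM in untreated knockout cells and 22.6 and 20.1 CPM with IFN, a log2 fold change of -1.47 (SE 0.10, adjusted p = 8.1e-22, edgeR).
AZU1, azurocidin, fell by 1.14 (SE 0.10, adjusted p = 7.4e-18, edgeR) and ELANE, neutrophil elastase, by 1.01 (SE 0.10, adjusted p = 1.3e-14, edgeR) on the log2 scale. These 2 genes and PRTN3 are neighbours in 1 cluster on chromosome 19. CTSG, cathepsin G, fell by 1.28 (SE 0.15, adjusted p = 1.3e-11, edgeR) and LYZ, lysozyme, by 1.40 (SE 0.19, adjusted p = 1.2e-09, edgeR). For LYZ, the difference between the IFN effects was -1.32 (SE 0.25, adjusted p = 4.4e-05, edgeR). Between genotypes in untreated cells, given as a description, the window of FCER1G was higher in knockout cells by 1.64 (SE 0.10) and those of S100A9 and S100A8 were lower by log2 fold changes of -1.63 (SE 0.20) and -1.41 (SE 0.26).

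By Pearson r of log2 CPM over the 8 libraries, among 12884 genes with a window within 1000 bp of the TSS, CEBPE was most like CLEC12A (0.995), MIR4496 (0.993) and PRTN3 (0.992). SPI1 was most like FEN1 (0.999), LZTS2 (0.998) and WARS (0.997), and CEBPG was most like PSAP (0.999), CARS (0.998) and SYF2 (0.998). For CEBPA these were RASSF1-AS1 (0.988), LOC100130027 (0.986) and KLLN (0.985), for CEBPB NUDT9 (0.998), DPH3 (0.996) and ANGEL2 (0.994), and for CEBPD RASA1 (0.997), TP53RK (0.996) and CTTNBP2NL (0.996). The points share libraries and 4 group levels, so r near 1 is a description of similar group means.

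In their central 200 bp, 9 of 42 members (21.4%) held a C/EBP match, 4 (9.52%) a PU.1 match, 7 (16.7%) an AP-1 match, 2 (4.76%) a C/EBP-ATF match and 1 (2.38%) an ISRE match, counted on both strands. The shares over all windows were 16.4%, 6.41%, 12.9%, 1.88% and 5.43%. The C/EBP and C/EBP-ATF patterns exclude each other on the same bases.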

How the data were processed

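H3K27ac ChIP-seq of 8 libraries was used. Per the methods and the submitters' processing notes, the authors aligned read pairs with Bowtie2 (version not given in the sources used here) on hg38, and used HOMER to make tag directories and to count tags, with no normalization, over windows of 1000 bp placed on ATAC-seq peaks after merging. The deposited values are expected counts, fractional tags without normalization. Each window was assigned by the authors to the nearest TSS. Fractions were rounded to whole counts, and 0 value columns were unmapped.

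Windows with at least 10 counts in at least 2 libraries were kept (123276 of 151654), scaled by TMM and fitted with 1 mean per group in edgeR 4.0.16 (limma 3.58.1, R 4.3.3), using its quasi-likelihood test, adjusted after Benjamini and Hochberg. A call required an adjusted p under 0.05 and more than 1 log2 unit of change. A common biological coefficient of variation of 0.0737 was estimated. Totals of 9082433 to 12971831 counts and 2 libraries per group limit the precision. Of all windows 31.8%, and of the members 64.3%, overlap another, so tags can count more than once. The steps were tested on simulated data.

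The members and lists were chosen with earlier results of these data known. Named were, for each gene, the window nearest the TSS, the strongest beyond 3000 bp, and up to 3 called or most different windows per contrast. Likeness used log2(CPM + 0.5) at windows with a mean of at least 1 CPM within 1000 bp of the TSS. Other windows were named after their values were seen. List genes were named where called at the TSS window, at most 4 per contrast. Motifs were searched with Python 3.11.15 in hg38 sequence (samtools 1.23.1, pysam 0.24.0), and GENCODE v44 gave annotations. All 24 chromosome names of the table occur in that genome. Alternatives were DESeq2 1.42.0, scaling by the sum of counts, other count filters, no fold threshold, 2 groups alone, a replicate block, each library left out and a limit of 10000 bp.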

Additional observations from a re-analysis of the deposited data

Results flagged for a closer look

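At 8 windows the response to IFN differed between knockout and WT cells, at an adjusted p under 0.05 for the difference itself by edgeR after adjustment over all windows tested, beside 5.22% of all windows lower and 6.84% higher by the same measure. The difference of the log2 fold changes, knockout minus WT, was -1.68 at CEBPE -614, -1.26 at CEBPG +20003 and -1.30 at CEBPG +30219, where numbers after the gene are the distance from the TSS in bp. It was -0.58 at CEBPA +8840, -0.59 at CEBPA +9107 and -0.61 at CEBPA +9690, which overlap and share tags. At CEBPA +28014 it was -0.65 and at CEBPA +35347 it was -0.50. All 8 differences were negative. In WT cells none of these 8 windows passed for IFN, with log2 fold changes from -0.26 to 0.15. This difference is built from the knockout against WT values on which the genes were chosen, so its adjusted p are not independent of that choice. The cause was not tested.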

How the results depend on the processing

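The count of members called higher with IFN in knockout cells was 0 in place of 1 with scaling by the sum of counts, with DESeq2 and within 10000 bp of the TSS, and 9 with no fold threshold. Lower members for the same comparison numbered 13 in place of 4 with no fold threshold and 1 within 10000 bp. For the difference of the IFN effects, lower members numbered 8 in place of 3 with no fold threshold and 1 within 10000 bp. Knockout against WT, untreated, gave 2 higher members in place of 5 with scaling by the sum of counts, 3 with at least 30 counts in 2 libraries and 23 with no fold threshold, and 6 lower in place of 3 with no fold threshold. With IFN, scaling by the sum of counts gave 2 higher in place of 6. There, no fold threshold gave 19 higher and 14 lower in place of 9 lower, of which 5 lay within 10000 bp. These knockout against WT counts are a description and no test, since the genes were chosen on this contrast. With no fold threshold, 16.9% of all windows tested were higher and 16.9% lower untreated. With IFN, these shares were 21.3% and 19.4%. Adding the 50 windows of the same intervals that the table assigned to other genes, an alternative chosen after seeing the data, gave 7 lower for IFN in knockout cells, 5 lower for the difference, 9 higher and 5 lower untreated and 12 higher and 16 lower with IFN between genotypes. The lower shares were 7.61% for IFN in knockout cells and 5.43% for the difference, beside 4.3% and 2.51% of all windows tested. Between genotypes, 9.78% were higher and 5.43% lower untreated, beside 5.67% and 10.8% of all windows tested. With IFN these were 13.0% and 17.4%, beside 11.3% and 13.4%.

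Leaving out each library in turn gave 0 to 1 higher and 4 to 5 lower members for IFN in knockout cells, 0 in both directions in WT cells, 0 to 2 higher and 3 to 4 lower for the difference, 2 to 4 higher and 3 lower for genotype untreated, and 4 to 6 higher and 8 to 10 lower for genotype with IFN. The 2 higher members for the difference appeared without replicate 2 of WT cells with IFN. Where a group kept 1 library, it was assumed to vary like the others. No member past the 2-fold threshold turned its sign under any alternative. Neither did any member with an adjusted p under 0.05 from edgeR for IFN in knockout cells or for the difference. In knockout against WT cells with IFN, given as a description, CEBPD at 3167 bp went from 0.23 to -0.04 with scaling by the sum of counts.

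With the replicate number as a block, IFN in knockout cells gave 1 higher and 4 lower members, as without it, and the replicate block changed no count of called members by over 1.5 times. With no fold threshold, the replicate block gave 1 higher member in place of 0 for the difference, CEBPD at -279 bp. The labels number the replicates, but same-numbered libraries did not deviate together, with correlations of their deviations from -0.00 to 0.06, so the number was not treated as a pairing.

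Low counts limit the CEBPB window at -4172 bp, the CEBPD windows near -26 kb and the CEBPG windows at 26717, 27988 and 41887 bp. In knockout cells they also limit the CEBPE windows at 4436, 5818 and 6726 bp, with 5 to 23 counts per library. The CEBPG window at 32478 bp held 18 and 15 counts in knockout cells with IFN.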

Other observations

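Within the same 50000 bp intervals, 50 more windows were assigned by the table to other genes, so they were no members. With IFN in knockout cells, 11 of the 50 were higher and 10 lower at an adjusted p under 0.05 from edgeR, beside 13% and 11.2% of all windows tested. At 2-fold, 0 were called higher and 3 lower (6%), beside 7.12% and 4.3%. Downstream of CEBPA, where a myeloid enhancer of the gene is known, the windows 40871, 41666 and 42839 bp from the CEBPA TSS, assigned to SLC7A10, fell with IFN in knockout cells more than the CEBPA members did. The first held 81.7 and 74.9 CPM in untreated WT cells, 79.3 and 81.4 CPM in WT cells with IFN, 64.2 and 68.1 CPM in untreated knockout cells and 34.3 and 31.4 CPM in knockout cells with IFN. The last group lay below all other libraries. Its log2 fold change with IFN was 0.04 (SE 0.09) in WT cells and -1.01 (SE 0.10) in knockout cells (adjusted p = 5.4e-15, edgeR), and the difference was -1.05 (SE 0.13) with an adjusted p of 1.6e-09 from edgeR. The other windows of this stretch changed by -0.95 and -0.92, and the one at 47969 bp by -1.42 in knockout cells.

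Upstream of SPI1, where a regulatory element of the gene is known, the windows 12676, 14714 and 16294 bp from its TSS, assigned to MIR4487, rose with IFN in knockout cells by 0.41, 0.33 and 0.33 on the log2 scale, with adjusted p up to 3.7e-04 from edgeR. At 12676 bp, WT cells held 83.4 and 76.1 CPM untreated and 88.4 and 99.0 CPM with IFN, and knockout cells held 110.3 and 112 CPM untreated and 149 and 147 CPM with IFN. The differences from the effects in WT cells were 0.18, 0.24 and 0.18, and none passed (adjusted p = 0.4, 0.16 and 0.35, edgeR). Downstream the direction was the opposite at 2 windows assigned to MYBPC3. The window 18784 bp from the SPI1 TSS, in an intron of SPI1, held 50.0 and 42.4 CPM in untreated WT cells, 49.6 and 47.3 CPM in WT cells with IFN, 37.4 and 42.6 CPM in untreated knockout cells and 29.0 and 23.4 CPM in knockout cells with IFN, below all other libraries. Its difference of the IFN effects was -0.68 (SE 0.16) (adjusted p = 8.5e-04, edgeR). The window at 29501 bp, in an intron of MYBPC3 and with few counts, changed by -1.46 (SE 0.47) with IFN in knockout cells (adjusted p = 0.014, edgeR).

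Over CEBPB, the windows 782, 1485 and 1839 bp downstream of its TSS, assigned to CEBPB-AS1, had log2 fold changes of 1.20, 1.50 and 1.83 in untreated knockout against WT cells, given as a description. With IFN in knockout cells the changes were 0.16, 0.24 and 0.32, with adjusted p of 0.23, 0.039 and 0.0063 from edgeR. The differences from WT cells did not pass (adjusted p = 0.4 to 0.8, edgeR). At 1839 bp, the values were 23.5 and 21.3 CPM in WT cells and 72.0 and 87.8 CPM in knockout cells.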
